A study of Mus musculus with 5 samples.

Results

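Immunoglobulin transcripts were examined in RNA of the mouse iridocorneal angle, the ring of tissue between iris and cornea through which aqueous humor drains. The variable (V) and constant (C) region genes of the Igh, Igk and Igl loci were chosen by their summed counts, which had to reach 10 over all libraries. This rule gave 95 of the 231 V and C genes in the count table, which holds 56941 identifiers in all. Of the 95, 32 are heavy chain V segments, 50 kappa V segments, 2 lambda V segments and 11 constant region genes. A segment could thus enter through 1 pool alone. Ighv1-81 lay just inside the limit with 10 counts, and Ighv1-66, Igkv13-84, Igkv4-63 and Igkv4-74 lay just outside with 9. Another 79 V and C genes had no count in any pool.

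The samples were 3 pools of DBA/2J and 2 pools of Gpnmb+ angle tissue, all from animals aged 12 months, which the labels describe as male and female. DBA/2J mice lack functional GPNMB, carry the Tyrp1b allele as well and develop pigmentary glaucoma. Gpnmb+ mice (DBA/2J-Gpnmb+/SjJ) are the matched strain, which shares that background and keeps a functional Gpnmb. Each pool is described as 3 mice, whereas the library names list 3 animals per DBA/2J pool and 2 per Gpnmb+ pool, so animal-to-animal spread inside a pool was averaged. The dissected ring included neighbouring limbal tissue and remnants of iris and ciliary body. Counts on genes summed to between 43900661 and 49837758 per library. Gpnmb had 2042, 2234 and 1946 counts in DBA/2J against 129659 and 110568 in Gpnmb+, in the direction of the labels. The angle markers Myoc and Angptl7 were present in every pool, at 3055 counts or more. Both were lower in every DBA/2J pool, with log2 fold changes of -1.06 and -0.82. Libraries differed in sex-linked RNA: Xist counts were 596, 0 and 2417 for the DBA/2J pools and 7843 and 9152 for the Gpnmb+ pools, and the Y-linked Ddx3y had 3608, 4168 and 1567 against 0 and 4. The Gpnmb+ libraries thus held almost no Y-linked Ddx3y, which goes against that description whether it is meant for each strain or for each pool. DBA/2J pool 2 held no Xist, which goes against it if it is meant for each pool. Genotype and the sex makeup of the pools cannot be told apart.

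An antibody consists of paired heavy and light chains. Each B cell joins 1 of many V segments to short D and J segments in the heavy chain, and a V to a J segment in the light chain. All cells of a clone thus share a V segment, but several clones can use the same one. The constant gene sets the class: Ighm and Ighd are used first, and class switching then replaces them with an IgG gene, Igha or Ighe. Light chains are kappa or lambda, and mice mostly use kappa. Plasma cells hold far more immunoglobulin mRNA per cell than resting B cells, so in bulk tissue fewer cells and less RNA per cell cannot be told apart. In the eye, antibody-producing cells are best known from the conjunctiva and lacrimal gland, where IgA is secreted into tears.

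Among the 95 genes, 3 were lower in DBA/2J by the test used here. Their sequences in the reference genome are shown because reads were aligned to them. All coordinates are in GRCm39. Igkv15-103 lies on the plus strand at chr6:68414424-68414909 and Igkv8-24 on the minus strand at chr6:70193842-70194405. Both are kappa V segments made of a leader exon and a V exon. They lie on the chromosome that carries Gpnmb, 19.4 and 21.1 Mb beyond its end. The last part of each V exon is given 5′ to 3′ at chr6:68414627-68414916 and chr6:70193835-70194124, with the CACAGTG heptamer of the recombination signal, which directly follows the exon, in capitals.
Igkv15-103: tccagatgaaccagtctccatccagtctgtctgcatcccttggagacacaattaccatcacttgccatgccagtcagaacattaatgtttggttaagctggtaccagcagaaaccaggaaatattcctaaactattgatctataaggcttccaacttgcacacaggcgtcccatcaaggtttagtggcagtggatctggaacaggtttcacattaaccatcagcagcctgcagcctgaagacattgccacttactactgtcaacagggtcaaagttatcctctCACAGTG
Igkv8-24: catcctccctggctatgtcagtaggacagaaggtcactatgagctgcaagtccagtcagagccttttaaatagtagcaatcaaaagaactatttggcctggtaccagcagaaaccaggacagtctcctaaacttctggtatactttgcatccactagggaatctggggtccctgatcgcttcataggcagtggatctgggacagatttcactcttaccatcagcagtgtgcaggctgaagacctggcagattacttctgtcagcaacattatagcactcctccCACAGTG
The heptamer directly followed 71 of the 84 V segments examined and 99 of the 134 V genes below the count limit.

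Ighv1-26 is a heavy chain segment of the large Ighv1 family on the minus strand at chr12:114751992-114752425. The most similar other segment is Ighv1-18, with 97.4% identity over the V exon. The final 290 bases of both V exons (chr12:114751992-114752281 and chr12:114646252-114646541) are printed with their 8 differing bases in capitals.
Ighv1-26: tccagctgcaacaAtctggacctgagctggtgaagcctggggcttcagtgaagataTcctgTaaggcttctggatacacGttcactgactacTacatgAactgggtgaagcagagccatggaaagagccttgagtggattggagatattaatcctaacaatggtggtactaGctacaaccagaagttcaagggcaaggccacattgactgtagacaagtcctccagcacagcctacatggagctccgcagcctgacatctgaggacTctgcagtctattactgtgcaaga
Ighv1-18: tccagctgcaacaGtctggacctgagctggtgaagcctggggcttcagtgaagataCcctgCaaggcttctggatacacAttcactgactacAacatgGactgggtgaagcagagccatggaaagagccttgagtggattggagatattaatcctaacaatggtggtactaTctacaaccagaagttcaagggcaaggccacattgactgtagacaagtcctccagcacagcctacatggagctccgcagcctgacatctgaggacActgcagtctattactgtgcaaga
Of the 100-base windows of the exons, 100 bases being the length of a read, 90.3% had a single match in the genome for Ighv1-26 and 100.0% for Ighv1-18. The windows of Ighv1-26 that were not unique therefore match a place other than the Ighv1-18 exons, which was not identified. Ighv1-18 itself had 2, 0 and 0 counts in DBA/2J against 9 and 1 in Gpnmb+.

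Copies were a wider matter. Of the 84 V segments, 20 had another V gene or pseudogene at 97% identity or more, and 58 had every 100-base window unique in the genome. The lowest uniqueness, 52.8%, belonged to Igkv5-43 and Igkv5-45, which share 99.0% of the V exon, and to Igkv13-85. The first pair is shown because Igkv5-43 led the counts of a DBA/2J pool. Its sequences come from chr6:69800339-69800628 and chr6:69752734-69753023, both on the minus strand, with the 3 differing bases in capitals.
Igkv5-43: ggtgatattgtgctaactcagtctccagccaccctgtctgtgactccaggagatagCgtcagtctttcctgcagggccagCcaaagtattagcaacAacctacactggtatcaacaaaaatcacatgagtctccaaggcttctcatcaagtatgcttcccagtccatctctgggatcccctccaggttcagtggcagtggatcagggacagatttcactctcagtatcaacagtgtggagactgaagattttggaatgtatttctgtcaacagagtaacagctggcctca
Igkv5-45: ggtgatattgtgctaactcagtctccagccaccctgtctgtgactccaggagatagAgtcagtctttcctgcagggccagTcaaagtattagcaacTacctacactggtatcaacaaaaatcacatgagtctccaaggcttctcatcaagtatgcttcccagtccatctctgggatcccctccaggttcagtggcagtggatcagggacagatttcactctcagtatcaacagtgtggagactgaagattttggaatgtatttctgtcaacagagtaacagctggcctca
The kappa segments called lower were not of this kind. The closest relative of Igkv15-103 is a pseudogene, Igkv15-101, at 78.9% identity, that of Igkv8-24 is Igkv8-30 at 91.8%, and every window of both was unique.

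V promoters carry an octamer, ATGCAAAT, which POU-domain factors of B cells bind. In the 250 bases before the annotated start, 23 of the 32 heavy V segments held ATGCAAAT and none held its reverse complement ATTTGCAT. Of the 50 kappa segments 36 held ATTTGCAT and none ATGCAAAT. The octamer was present on either strand in 72.6% of the 84 V segments, in 78.4% of the V genes below the count limit, in 39.2% of V pseudogenes and in 2.04% of all annotated genes. Its first base lay 46 to 133 bases before the start. The stretch around it is given for Igkv15-103 (chr6:68414331-68414382) and for the leading kappa segments Igkv19-93 (chr6:68713817-68713868), Igkv5-43 (chr6:69800974-69801025) and Igkv16-104 (chr6:68402466-68402517), read in the direction of the gene with the octamer in capitals.
Igkv15-103: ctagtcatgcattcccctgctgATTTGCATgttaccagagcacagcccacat
Igkv19-93: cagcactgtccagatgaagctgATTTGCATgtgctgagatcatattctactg
Igkv5-43: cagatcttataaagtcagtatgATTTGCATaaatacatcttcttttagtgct
Igkv16-104: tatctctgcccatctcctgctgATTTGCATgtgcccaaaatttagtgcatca
The exact octamer was not found in this window of Igkv8-24, Ighv1-26, Igkv8-30 or Ighv2-9. A match or its absence is a description of the reference sequence.

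Immunoglobulin RNA was present in all pools. The members took 3554, 2641 and 6184 counts in DBA/2J pools 1 to 3, against 10346 and 7708 in Gpnmb+ pools 1 and 2. Scaled by TMM (trimmed mean of M values), the sums were 79.9, 61.5 and 139 CPM (counts scaled to a common library size) in DBA/2J against 204 and 158 CPM in Gpnmb+, with means of 93.5 ± 40.5 (SD, n = 3) and 181 ± 32.5 (SD, n = 2). Every DBA/2J pool was below both Gpnmb+ pools. The log2 ratio of the means was -0.95. No test of the sum is given, since the smallest p that 3 against 2 pools allow is 0.2 (two-sided exact permutation test). The separation rested on Ighm, the gene for the IgM heavy chain: without it the sums were 63.5, 34.7 and 99.3 CPM in DBA/2J against 114 and 80.2 CPM in Gpnmb+, and the groups overlapped. The order of the sums follows that of the Xist counts given above within DBA/2J and between the groups but not within Gpnmb+, and the part of sex in it was not tested.

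Constant region genes carried most of the counts. Ighm had 728, 1153 and 1751 counts in DBA/2J against 4545 and 3783 in Gpnmb+, or 27.5 ± 11.4 CPM (SD, n = 3) against 83.4 ± 8.65 CPM (SD, n = 2). All DBA/2J pools were below both Gpnmb+ pools. The log2 fold change was -1.60 (standard error 0.33), and Ighm was not called, at an adjusted p of 0.0995 (quasi-likelihood test in edgeR, Benjamini-Hochberg method). It was called by DESeq2 with the same log2 fold change (Benjamini-Hochberg adjusted p = 0.000133). Ighd, which naive B cells express together with Ighm, had 34, 62 and 74 counts against 96 and 100. Its groups were also separated, with a log2 fold change of -0.61 (standard error 0.36, edgeR adjusted p = 0.463). Ighm counts per Ighd count were 21.4, 18.6 and 23.7 in DBA/2J against 47.3 and 37.8 in Gpnmb+.

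Igha, the IgA heavy chain gene, had the opposite sign. Its counts were 732, 332 and 1018 in DBA/2J against 581 and 177 in Gpnmb+. The highest pool was in DBA/2J and the lowest in Gpnmb+, with overlap between them. The log2 fold change was 1.06 (standard error 0.61, edgeR adjusted p = 0.456). Leaving out Gpnmb+ pool 1 gave 2.12, and leaving out the other Gpnmb+ pool gave 0.45. Among the IgG genes, Ighg1 had 24, 5 and 252 counts in DBA/2J against 3 and 191 in Gpnmb+, so nearly all of its counts came from 1 pool of each strain. Ighg2c had 77, 8 and 22 against 306 and 2. The gene is named as in the C57BL/6J reference, and in some strains of mice its position holds IgG2a in place of IgG2c. Which form these mice carry was not examined. Ighg2b had 89, 25 and 41 against 67 and 13, with overlap. Ighg3 had 1, 3 and 3 against 6 and 9, lower in each DBA/2J pool but under the count minimum of the test.

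**Figure D1:**
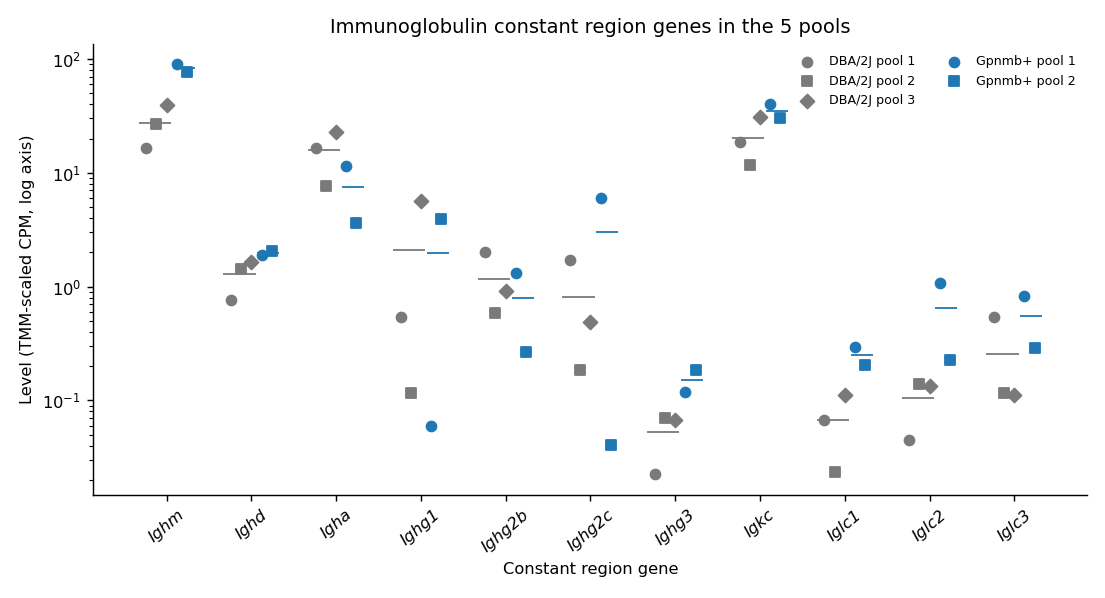
Level of each constant region gene in TMM-scaled CPM (log axis) in the 3 DBA/2J pools (grey) and the 2 Gpnmb+ pools (blue), with short lines at the group means. Ighm and Ighd are lower in every DBA/2J pool, while Ighg1 and Ighg2c span a wide range inside both groups.

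The classes made up different shares of the heavy constant region counts, which numbered 1685, 1588 and 3161 in DBA/2J against 5604 and 4275 in Gpnmb+. Ighm held 43.2%, 72.6% and 55.4% in DBA/2J against 81.1% and 88.5% in Gpnmb+. Igha held 43.4%, 20.9% and 32.2% against 10.4% and 4.14%. IgG genes together held 11.3%, 2.58% and 10.1% against 6.82% and 5.03%. Classes other than Ighm and Ighd thus took 54.8%, 23.5% and 42.3% in DBA/2J against 17.2% and 9.17% in Gpnmb+, a mean of 40.2 ± 15.8% (SD, n = 3) against 13.2 ± 5.68% (SD, n = 2), without overlap. A share of this kind is lower where Ighm is higher, even where the other genes stay as they are.

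**Figure D2:**
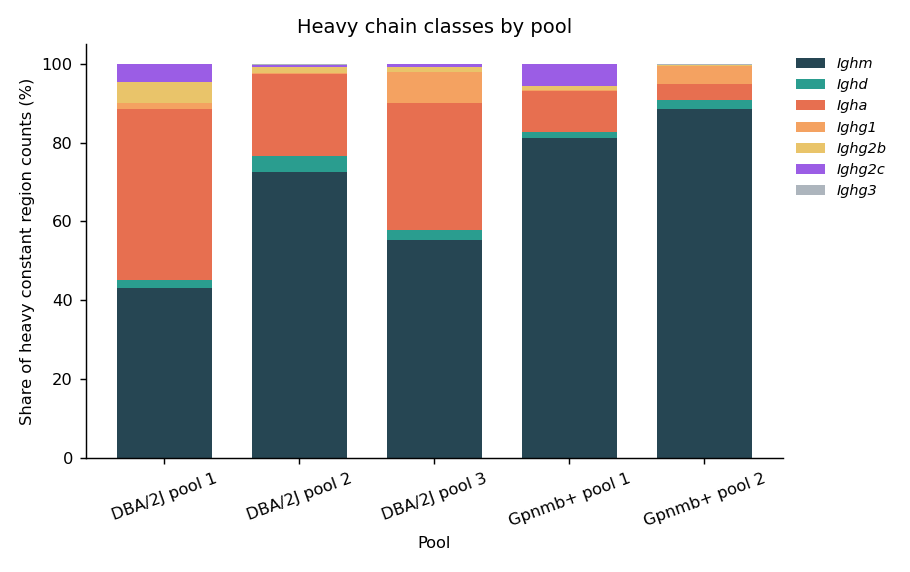
Share of the heavy constant region counts (percent) taken by each class in each pool, stacked to the whole. Ighm takes 81.1% and 88.5% in the Gpnmb+ pools and between 43.2% and 72.6% in the DBA/2J pools, and Igha fills most of the difference.

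Light chains were mostly kappa. Igkc, the single kappa constant gene, had 824, 499 and 1371 counts in DBA/2J against 2027 and 1467 in Gpnmb+. On the CPM scale these were 18.5, 11.6 and 30.7 against 39.9 and 30.0, and the groups overlapped. The log2 fold change was -0.78 with an edgeR adjusted p of 0.384. Per kb of exon, the mean level was 38.1 CPM for Igkc and 14.6 CPM for Ighm in DBA/2J, and 65.7 and 44.2 CPM in Gpnmb+. Of the lambda constant genes, Iglc2 had 2, 6 and 6 counts against 55 and 11, Iglc1 had 3, 1 and 5 against 15 and 10, and Iglc3 had 24, 5 and 5 against 42 and 14. Iglc1 and Iglc2 were lower in all DBA/2J pools, with edgeR adjusted p-values of 0.257 and 0.205.

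Kappa segments took 96.0%, 98.0% and 97.8% of the light chain V counts in DBA/2J against 93.5% and 99.1% in Gpnmb+. The exact (Clopper-Pearson) 95% intervals were 94.4 to 97.2%, 96.2 to 99.1%, 96.9 to 98.5%, 92.3 to 94.5% and 98.4 to 99.5% in that order. These intervals cover counting error only. The lowest and the highest share were both in Gpnmb+, and the lambda counts of Gpnmb+ pool 1 came from Iglv1, with 69, and Iglv2, with 60. Iglv2 had 1 count in each DBA/2J pool and 0 in Gpnmb+ pool 2, whereas Iglv1 was present in all pools at 32, 8 and 28 against 69 and 13. The Iglv1 and Iglv2 V exons are 97% identical, so their counts are named as uncertain, although 97.6% of the 100-base windows of each were unique.

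Kappa V segments were counted nearly as often as their constant gene, at 88.2 to 96.4 V counts per 100 Igkc counts. In the heavy chain there were 5.86 to 12.4 V counts per 100 constant region counts. The heavy V counts were 189, 93 and 319 in DBA/2J against 633 and 532 in Gpnmb+, and the kappa V counts 794, 440 and 1288 against 1841 and 1386. Heavy V segments therefore rest on fewer counts than kappa segments.

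The leading V segments differed from pool to pool. In DBA/2J pool 1 Igkv5-43 led with 203 counts, or 25.6% of the kappa V counts, and in DBA/2J pool 2 Igkv16-104 with 100, or 22.7%. Igkv8-30 led DBA/2J pool 3 with 256 counts (19.9%), Igkv19-93 led Gpnmb+ pool 1 with 475 (25.8%) and Igkv15-103 led Gpnmb+ pool 2 with 533 (38.5%). No kappa segment was first in more than 1 pool. Igkv16-104 had 6, 1, 5 and 0 counts in the pools it did not lead, and Igkv19-93 had 1, 0, 89 and 2. Igkv4-59, second in Gpnmb+ pool 2 with 282 counts, had 0, 13 and 6 in DBA/2J and 0 in the other Gpnmb+ pool. Igkv1-117 (5, 23 and 175 against 102 and 15), Igkv1-110 (125, 10 and 65 against 102 and 12), Igkv1-135 (93, 3 and 93 against 7 and 45) and Igkv6-15 (5, 13 and 74 against 41 and 122) had counts in all pools of both strains.

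Among heavy segments, Ighv2-9 had 12, 10 and 131 counts in DBA/2J against 124 and 135 in Gpnmb+, and it led 3 pools. DBA/2J pool 3 was at the level of the Gpnmb+ pools, and the log2 fold change was -1.18 (edgeR adjusted p = 0.632). Ighv1-4 led DBA/2J pool 1 with 49 counts and had 85 in Gpnmb+ pool 2 but none in DBA/2J pool 3 or Gpnmb+ pool 1. Ighv1-7, 97.7% identical to it, followed the same pools with 29, 5 and 6 counts against 0 and 69, and reads of the pair may be split between them. Ighv3-6 led DBA/2J pool 2 with 17 counts and had at most 1 elsewhere. All 95 counts of Ighv6-3 were in Gpnmb+ pool 1, and all 27 of Ighv1-67 in DBA/2J pool 3. Ighv7-3 had 119 of its 147 counts in Gpnmb+ pool 2, with 7, 8 and 1 in DBA/2J and 12 in Gpnmb+ pool 1. It was lower in every DBA/2J pool (edgeR adjusted p = 0.215) and was called by DESeq2 (adjusted p = 0.0436).

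**Figure D3:**
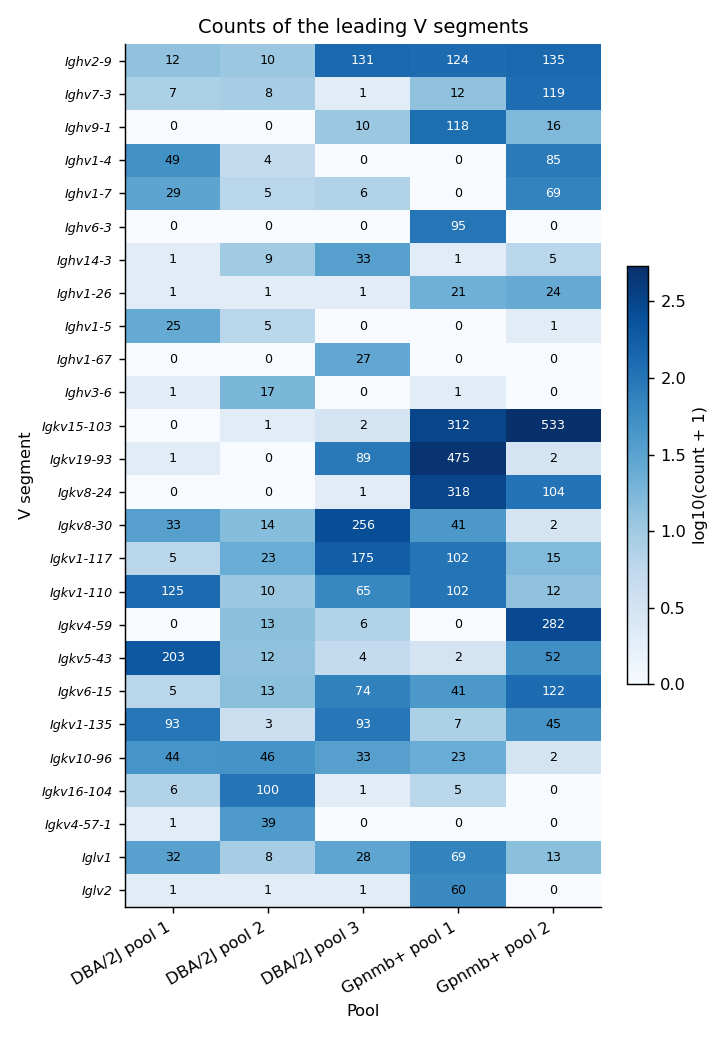
Counts of the 26 V segments that were among the leading segments of a pool or were called, as numbers and as shading on a log10(count + 1) scale, ordered by locus and total. Most rows have 1 or 2 dark cells, and the rows Igkv15-103, Igkv8-24 and Ighv1-26 are dark in both Gpnmb+ pools and nearly empty in DBA/2J.

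The concentration in single pools held across the segments. In the median V segment 72.4% of all counts came from 1 pool, against 31.2% for the 9689 other genes of comparable totals (10 counts up to the total of the highest V segment). With at least 50 counts, where counting noise is smaller, the medians were 67.7% for 36 V segments and 28.2% for 5239 other genes. At least 90% of the counts lay in 1 pool for 17 of the 84 V segments, 7 of them in Gpnmb+ pool 1, 5 in DBA/2J pool 3, 2 each in DBA/2J pool 2 and Gpnmb+ pool 2, and 1 in DBA/2J pool 1. Among the other genes this was so for 0.165%. Only 22 V segments, or 26.2%, had a count in every pool, against 88.0% of the other genes. Constant genes, which many clones share, had counts in all 5 pools for all 11 members, with a median of 40.9% in the highest pool. The biological coefficient of variation that edgeR estimated per gene had a median of 97.9% over the 77 V segments tested, 51.0% over the 10 constant genes tested and 17.8% over all 19713 genes tested.

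The effective number of V segments, the inverse of the sum of squared shares, gives the number of equally used segments that would have the same evenness. Over all V segments it was 12.6, 16.2 and 16.5 in DBA/2J against 13.0 and 8.35 in Gpnmb+, with overlap. For kappa segments it was 8.26, 11.1 and 11.8 against 7.32 and 4.80, or 10.4 ± 1.87 (SD, n = 3) against 6.06 ± 1.78 (SD, n = 2), without overlap. DBA/2J pool 1 and Gpnmb+ pool 1 lay closer to each other than to the rest of their groups. The 5 leading kappa segments held 65.6%, 54.1% and 53.3% of the kappa V counts in DBA/2J against 71.1% and 79.4% in Gpnmb+. Leaving out the called kappa segments gave 8.26, 11.1 and 11.7 against 5.55 and 5.32. Heavy segments showed 7.43, 11.9 and 4.97 against 8.21 and 6.15, with overlap. These numbers count segments and not clones, since several clones can use 1 segment.

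**Figure D4:**
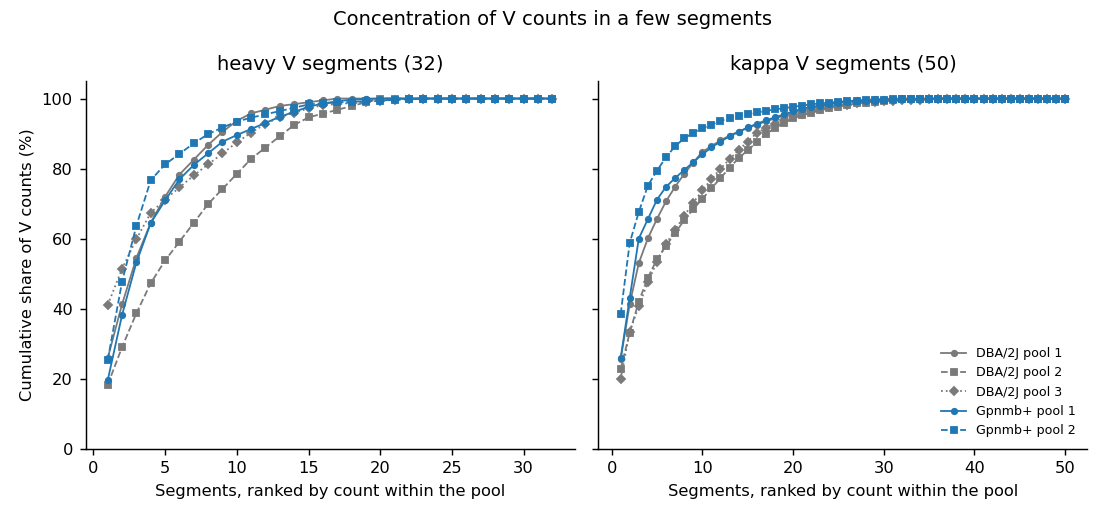
Cumulative share of the V counts (percent) against the rank of the segment within its pool, for 32 heavy segments (left) and 50 kappa segments (right), with DBA/2J pools in grey and Gpnmb+ pools in blue. In the kappa panel the first 5 segments hold 71.1% and 79.4% of the counts in Gpnmb+ and 53.3% to 65.6% in DBA/2J.

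Family shares also differed from pool to pool, though some families had counts in all pools. Igkv1 was the family of most kappa counts, with 1045, and took 29.1%, 15.0% and 30.0% of kappa V counts in DBA/2J against 14.5% and 6.42% in Gpnmb+. Igkv4, the family with most genes in the table (26), had 8 members, and took 25.0% in Gpnmb+ pool 2 and 15.2% in DBA/2J pool 2 but between 2.02% and 3.91% elsewhere. In the heavy chain, Ighv1 had 10 members among 53 genes and took 59.3%, 21.5% and 18.2% in DBA/2J against 6.48% and 34.0% in Gpnmb+. All 4 Ighv9 genes were members and took 37.6% of the heavy V counts in Gpnmb+ pool 1 and at most 5.38% in any other pool. Ighv2 took 16.4%, 17.2% and 45.1% in DBA/2J against 22.9% and 28.8% in Gpnmb+. Ighv9-1 (0, 0 and 10 against 118 and 16), Ighv9-2 (0, 0 and 1 against 38 and 6) and Ighv9-3 (0, 1 and 4 against 71 and 5) were lower in each DBA/2J pool without being called, at edgeR adjusted p-values of 0.229, 0.125 and 0.212.

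The genotypes were compared gene by gene in edgeR (quasi-likelihood test) over the 19713 genes that reached 10 counts in some pool. A call needed a Benjamini-Hochberg adjusted p of at most 0.05 and a change of at least 1.5-fold. Of the 95 members 87 were tested, and the other 8, Ighg3 among them, did not reach 10 counts in any pool. Called lower in DBA/2J were 3 of 87, where 0.294% of all genes were called lower, and none was called higher, where 0.502% of all genes were. At an unadjusted p of at most 0.05 and the same change, 18 members were lower and 4 higher, against 4.48% and 4.2% of all genes. DESeq2 gave no adjusted p for 47 of these members. Among the 40 with a value it called 4 lower (Igkv15-103, Igkv8-24, Ighm and Ighv7-3) and 0 higher, where 2.15% and 3.06% of all genes with a value were called. All DBA/2J pools were below both Gpnmb+ pools for 15 members and above for 3, where 17.2% and 17.3% of all genes tested were, so the first count is near the background and the second below it. The median log2 fold change was -0.61 over the members tested and -0.02 over all genes tested, and 47 members were below 0 and 40 above. By locus it was -1.21 for 27 heavy V segments and 0.40 for 48 kappa V segments.

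Igkv15-103 had 0, 1 and 2 counts in DBA/2J against 312 and 533 in Gpnmb+, at 6.15 and 10.9 CPM. Both Gpnmb+ pools were far above each DBA/2J pool, in which the segment was at or under 3 counts, the floor used here. Summed over the pools and scaled by the TMM library sizes, counts were 373 times as high in Gpnmb+, with an exact 95% counting interval from 127 to 1810. The edgeR adjusted p was 0.0175. Igkv8-24 had 0, 0 and 1 counts in DBA/2J against 318 and 104 in Gpnmb+. Its ratio was 559, with an interval from 99.8 to 22100 that reflects the single DBA/2J count, and the edgeR adjusted p was 0.0262. Ighv1-26 had 1 count in each DBA/2J pool and 21 and 24 in Gpnmb+, a ratio of 19.9 with an interval from 6.38 to 99.9 and an edgeR adjusted p of 0.0374. DESeq2 gave it no adjusted p. Together the 3 segments made up 25.0% and 34.2% of all V counts in the Gpnmb+ pools and at most 0.369% in a DBA/2J pool. The counting intervals do not include the spread between mice. All 3 calls were lost when any DBA/2J pool or Gpnmb+ pool 2 was left out, and no member was then called. Without Gpnmb+ pool 1, Igkv15-103 and Igkv8-24 kept their calls, Igkv4-50 was called and Ighv1-26 was not. The edgeR adjusted p-values of the lost calls lay between 0.0508 and 0.148.

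Segments in the other direction were fewer and were not called. Ighv2-3 had 19, 6 and 9 counts in DBA/2J and 0 in both Gpnmb+ pools, and was at least 4.26-fold higher in DBA/2J when Gpnmb+ was set at 3 counts per library. Its edgeR adjusted p was 0.121. Igkv10-96 had 44, 46 and 33 counts against 23 and 2, with a log2 fold change of 1.90 (standard error 0.78, edgeR adjusted p = 0.314). Igkv12-41 (24, 0 and 39 against 0 and 1) and Igkv13-85 (26, 16 and 0 against 0 and 1) were absent from 1 DBA/2J pool each, at edgeR adjusted p-values of 0.284 and 0.310. Igkv14-111 (13, 2 and 1 against 0 and 0) was also higher in each DBA/2J pool.

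Genes that make, move and sense antibody were described from lists. None of the 13 genes tested for antibody assembly and secretion was called by edgeR or DESeq2, and 0 passed at an unadjusted p of 0.05 with the same change. Jchain, which links IgM and IgA into polymers, had 328, 139 and 457 counts in DBA/2J against 363 and 447 in Gpnmb+ (log2 fold change -0.23, edgeR adjusted p = 0.845). Mzb1, a chaperone of IgM assembly, had 4 counts at most, and Xbp1, a regulator of secretory capacity that many cells express, was between 5576 and 7468. Of 12 antibody transport and Fc receptor genes none was called by either tool, and 0 passed unadjusted. Pigr, the epithelial receptor that carries polymeric IgA and IgM across mucosa, had 1121, 1008 and 1087 counts against 1280 and 2739 (edgeR adjusted p = 0.320). Fcmr, the IgM receptor, had 26, 20 and 16 against 49 and 31. These were the 2 genes of the list that were lower in every DBA/2J pool on the CPM scale. Fcgr3 was the 1 that was higher in every DBA/2J pool (log2 fold change 0.4, edgeR adjusted p = 0.183). Fcgrt had 5174, 5187 and 5104 counts against 6402 and 4727, with overlap. Of the 12 genes 5 had a log2 fold change below 0, and the median was 0.03.

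B cell markers were present at low counts. Of 12 genes 11 had a log2 fold change below 0, none was called by edgeR, 6 were lower at an unadjusted p of 0.05, and 2 were called lower by DESeq2. In 7 of them every DBA/2J pool was below both Gpnmb+ pools, against 17.2% of all genes. Ms4a1, which encodes CD20, had 29, 27 and 34 counts against 83 and 83 (edgeR adjusted p = 0.0860, DESeq2 adjusted p = 0.0116). Cr2, the complement receptor of follicular B cells, had 11, 10 and 8 against 42 and 49 (edgeR adjusted p = 0.0607, DESeq2 adjusted p = 0.0075). Cd79a and Cd79b, the signalling chains of the B cell receptor, had 16, 26 and 33 against 48 and 65 and 73, 63 and 65 against 125 and 143. The summed level of the list was 16.9, 19.7 and 17.0 CPM in DBA/2J against 23.5 and 23.2 in Gpnmb+, of which Cd37 supplied 8.63 to 11.7 CPM. The B cell receptor and signalling list, which shares several of these genes, had 0 calls of 14 by edgeR, 4 lower unadjusted and 1 lower by DESeq2. Of its 14 genes, 7 had a log2 fold change below 0, and the median was 0.01. Its summed level was higher in every DBA/2J pool, at 518, 516 and 505 CPM against 493 and 407 in Gpnmb+. Cd81 supplied 266, 275 and 282 CPM of it against 247 and 194.

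Plasma cell markers had 0 calls of 9 tested by edgeR or DESeq2, and 2 were lower unadjusted. Pou2af1, a coactivator at octamer promoters, had 18, 13 and 42 counts against 63 and 71, and Irf4, which plasma cells need, had 130, 209 and 149 against 434 and 241. Tnfrsf17 was between 7 and 17. The summed plasma cell list overlapped between groups, and Sdc1, which epithelia also express, supplied 278 to 435 of its 640 to 791 CPM. Recombination genes had 0 calls of 6 tested by edgeR, with 1 higher unadjusted and 1 called higher by DESeq2. Rag1, part of the recombinase, had 25, 25 and 31 counts in DBA/2J against 5 and 3 in Gpnmb+ (edgeR adjusted p = 0.0521), and Rag2 had 5, 3 and 5 against 0 and 0. None of 13 survival and homing genes, 8 germinal centre genes or 10 T cell genes was called by edgeR or DESeq2, and unadjusted 1, 1 and 0 of them were higher. Cxcl12, a plasma cell retention signal made by stroma, had 12991, 14708 and 15524 counts against 19860 and 21461 (edgeR adjusted p = 0.243), and Il6 had 458 counts in DBA/2J pool 1 and at most 36 elsewhere.

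Some markers of other tissues were also lower in every DBA/2J pool. Of 14 lacrimal and salivary acinar genes, 7 were tested, all 7 had a log2 fold change below 0, and edgeR called 2 lower in DBA/2J. Car6, a secreted carbonic anhydrase, had 43, 48 and 66 counts against 503 and 598 (log2 fold change -3.22, edgeR adjusted p = 0.0175), and Bpifa2, a secreted salivary protein, had 21, 16 and 7 against 145 and 335 (-3.85, edgeR adjusted p = 0.0484). The call of Car6 was lost without DBA/2J pool 1, DBA/2J pool 2 or Gpnmb+ pool 2 (edgeR adjusted p 0.0775 to 0.0891). That of Bpifa2 was lost without any DBA/2J pool or Gpnmb+ pool 2 (0.134 to 0.151) and with the replicate number as a block (0.0584). In 6 of the 7 tested genes every DBA/2J pool was below both Gpnmb+ pools, and DESeq2 called Bpifa2, Car6 and Amy1 lower. Of the 6, Pip, Obp1a, Amy1 and Lpo were not called by edgeR. Their log2 fold changes were -2.65, -3.55, -0.99 and -0.44, with edgeR adjusted p-values of 0.376, 0.163, 0.15 and 0.515. The genes Muc19, Dcpp1, Dcpp2, Dcpp3 and Smgc of this list were at 0 in every DBA/2J pool and in Gpnmb+ pool 1. In Gpnmb+ pool 2 they were at 1, 9, 0, 0 and 0 counts. The summed level of the list, mostly Aqp5, was 206, 116 and 79.6 CPM in DBA/2J against 352 and 199 CPM in Gpnmb+ and overlapped. The 10 conjunctival and mucosal genes had 0 calls by edgeR, 2 lower and 2 higher unadjusted, and 1 in each direction by DESeq2. Among them Ltf had 1965, 1580 and 2318 counts against 12269 and 2971, and Muc5ac 8174, 893 and 859 against 147 and 379. The part of such tissue in the immunoglobulin results was not tested. Hemoglobin Hbb-bs, a measure of blood, was 3905, 2191 and 2331 against 1720 and 5866 counts and was lowest in the pool with most immunoglobulin. The angle list had 4 of 7 tested genes called lower in DBA/2J, the macrophage list 0 of 7 and the red blood cell list 0 of 6, the last 2 also by DESeq2 and unadjusted.

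**Figure D5:**
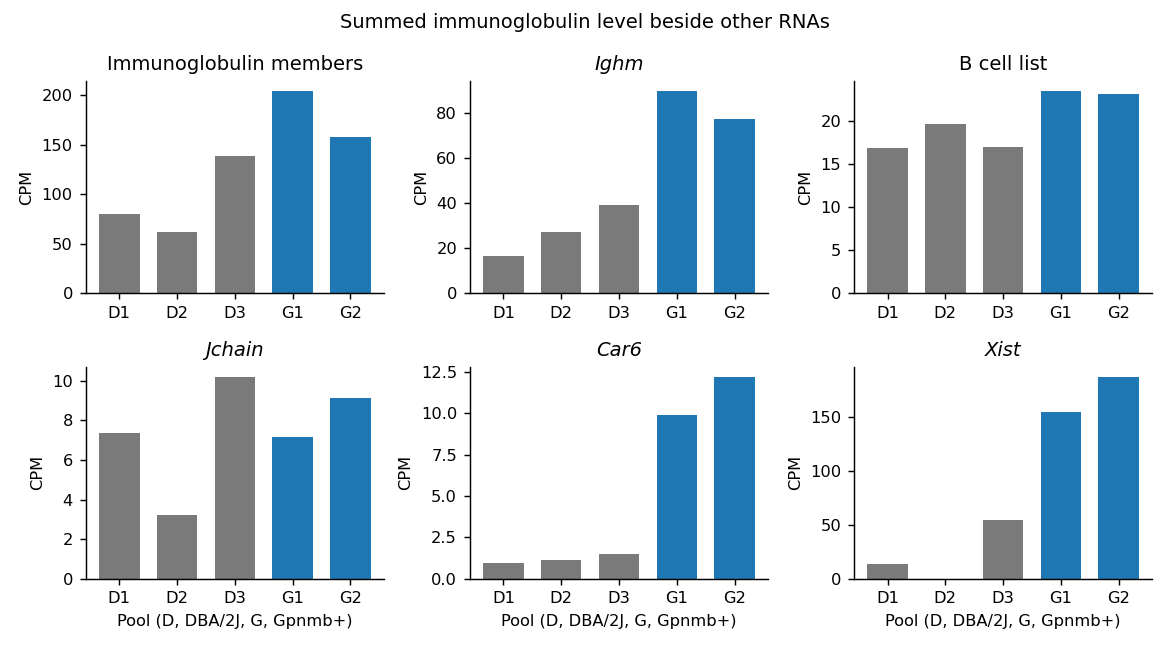
Levels in CPM, 1 bar per pool (D1 to D3, DBA/2J pools, grey, G1 and G2, Gpnmb+ pools, blue), of the 95 immunoglobulin genes summed, Ighm, the summed B cell list, Jchain, Car6 and Xist. Ighm, the B cell list, Car6 and Xist are lower in every DBA/2J pool, while Jchain overlaps between the groups.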

How the data were processed

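RNA of pooled iridocorneal tissue was sequenced as 100-base paired reads from poly(A) libraries. Trimming by the authors used fastp and alignment used STAR against GRCm39 (Ensembl 110). The deposited values are raw counts, which tally the reads aligned to a single place in each gene and are not normalized. The strand setting is not given in the sources used here. The reference sequence is that of another strain, C57BL/6J, and reads lost to segment differences or somatic mutation were not measured. Groups came from the labels, with 3 DBA/2J and 2 Gpnmb+ pools. p-values measure the spread between pools, each of several mice.

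Gene symbols, biotypes and coordinates were taken from GENCODE M39 (GRCm39), which held 56323 of the 56941 identifiers. Members were V and C genes with at least 10 summed counts. The members, marker lists and naming rule were chosen with earlier results of these data known. The text names every constant gene, every called member, the leading 3 heavy, 3 kappa and 2 lambda V segments of each pool, genes at the count limit, and called or leading genes of each list. Other segments were named after their values were seen. Library sizes were 43900661 to 49837758 counts, in which 1 count is 0.0197 to 0.0233 CPM. Counts were scaled by TMM and tested with edgeR 4.0.16 in R 4.3.3, without covariates. Genes needed 10 counts in at least 1 pool. DESeq2 1.42.0 was an alternative, with the others given in the closing section. Adjusted p-values are Benjamini-Hochberg values over all genes tested. The fits were tested on simulated data. Exact intervals (scipy 1.17.1) are at 95% and cover counting error only, and the floor was 3 counts per library. Sequences were read from the GRCm39 genome. V exons were compared with edlib, and 97% identity counted as near-identical.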

Additional observations from a re-analysis of the deposited data

How the results depend on the processing

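Over all genes 157 were called. This count was 927 with DESeq2, 360 without a count minimum and 1 to 217 with a pool left out. Members called lower numbered 3, and 6 with the replicate number as a block (Igkv15-103, Igkv19-93, Igkv8-24, Igkc, Ighm and Ighv2-9), where Ighv1-26 lost its call at an edgeR adjusted p of 0.0800. The strains share 2 replicate numbers, whose pools deviated from their group means with correlations of 0.279 and 0.254. The deviations of the 2 Gpnmb+ pools mirror each other, so these correlations are not independent. The labels do not say that a number marks a shared batch. Without a Gpnmb+ pool the lone library is assumed to vary like the DBA/2J pools. With a pool left out, 0 to 3 members were called lower. None was called higher in any fit. Scaling by DESeq2's size factors, edgeR's own expression filter, no count minimum and no fold change minimum each left 3 members called lower.

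The log2 ratio of the summed level was -0.95, between -1.35 and -0.73 with a pool left out, -0.98 with plain totals, -0.99 with members of 50 counts or more, -0.93 with all immunoglobulin genes and pseudogenes, -0.58 without the leading member of each pool and -0.56 without Ighm, an alternative chosen after seeing the data. The mean effective number of V segments was 13.3, and 9.0 with members of at least 50 counts, which leaves fewer segments by construction. It was 13.1 with near-identical copies merged. The mean kappa share was 96.9%, and 97.1% from constant genes. The log2 fold change of Jchain ran from -0.62 to 0.11 with a pool left out and changed sign without DBA/2J pool 2. Heavy V segments rest on 93 to 633 counts per pool, which limits the precision of their shares.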

Other observations

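Besides V and C genes, few immunoglobulin genes had counts. Pseudogenes of V segments took 37, 28 and 88 counts in DBA/2J against 72 and 35 in Gpnmb+, mostly Ighv3-2 (107 in all) and Ighv4-2 (95). Their nearest V genes Ighv3-1 (8, 5 and 10 counts against 9 and 5) and Ighv4-1 (14, 3 and 11 against 26 and 9) are 94.4% and 95.8% identical to them. J segments took 9, 21 and 12 against 24 and 26 counts, and Ighj1 alone 63 in all. D segments had 1 count in every pool.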
